A study of Homo sapiens with 52 samples.

Results

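The messenger RNAs of 37 genes of homologous recombination, Fanconi anaemia repair and the replication checkpoint were followed by drug, dose and line in hepatoblastoma cells and in macrophages cultured with them. The members were taken by gene symbol, and a row for each of the 37 stood in both count tables, which list 62696 genes for the tumour lines and 61209 for the macrophages. The poly(A) RNA of 52 libraries was sequenced. HepG2 and Huh6 are human hepatoblastoma lines, and they were given PKF118-310, which blocks the pairing of beta-catenin with TCF and so Wnt target transcription, or iMDK, an inhibitor of the growth factor midkine, for 48 h before RNA was taken. Huh6 received PKF118-310 at 0.2, 0.3 and 0.4 µM, iMDK at 5 and 10 µM, or empty vehicle, with 3 libraries in each group. HepG2 received PKF118-310 at 0.2 µM, iMDK at 5 and 10 µM, or empty vehicle, with 3 libraries in each group, and PKF118-310 at 0.3 µM in 1 library. THP-1, a monocytic leukaemia line differentiated to macrophages with phorbol ester, was sequenced with 3 libraries in each of 7 groups. These were THP-1 after 24 h with HepG2 or Huh6 that had been left untreated or exposed to iMDK at 5 or 10 µM for 24 h beforehand, sorted from the co-culture, and THP-1 kept alone. The labels do not say whether the 3 libraries of a group are separate cultures, so every p-value measures the spread between these libraries, which may be technical.

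Homologous recombination copies the sister chromatid to mend a double-strand break: nucleases trim the ends, BRCA1 and BRCA2 complexes ready the single strands for pairing with the template, and helicases take the joined molecules apart. The Fanconi pathway handles crosslinks between the DNA strands: a core complex places ubiquitin on FANCD2 and FANCI, which recruit nucleases and the recombination enzymes. The ATR kinase and its partners sense stalled replication, and most of these genes are transcribed mainly in dividing cells from the start of DNA replication on.

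The tumour libraries held 18.2 to 19.9 M counts in Huh6 and 18.3 to 20 M counts in HepG2, and the THP-1 libraries held 12.6 to 16.9 M counts (M, the SI prefix mega). Levels are given as CPM, counts scaled to a common library total with edgeR's TMM factors, on which 3 counts were worth 0.15 to 0.165 CPM in the tumour lines and 0.177 to 0.238 CPM in THP-1. Changes were tested with edgeR's quasi-likelihood test over all genes that passed a low-count filter in a line, and a call was a Benjamini-Hochberg adjusted p under 0.05. The 16 hepatoblastoma marker genes summed to 35729 to 39372 CPM in vehicle HepG2 and 13941 to 14079 CPM in vehicle Huh6. The 10 macrophage markers summed to 4324 to 4764 CPM in THP-1 alone, although CD68, a lysosomal macrophage glycoprotein, was at 0 in every library of all 3 lines. They summed to 15.5 to 18.1 CPM in vehicle Huh6 but to 1150 to 1300 CPM in vehicle HepG2, where 2 of them were above 1 CPM. In bulk RNA, fewer cells of a kind and less RNA per cell cannot be told apart.

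Of the 37 members, 34 passed the filter in every line. RAD50, the ATPase of the MRE11 nuclease complex (GENCODE 29 gene at chr5:132556019-132646344, GRCh38), was at 0 in every library. Its exons share 79.7% of their length with other genes on the same strand, and whether the counting step discarded its reads was not tested. MND1, a meiotic partner of the recombinase DMC1, had 1 count in the whole tumour table and 0 in THP-1. EME1, which cuts branched DNA together with MUS81, had 81 counts over the 31 tumour libraries and 14 over the THP-1 libraries. These 3 members were not tested. Overlap on the same strand also touches RAD54B (59.1% of its exon length) and ATRIP (27.9%), so their levels are uncertain. XRCC3 shares 76.7% of its exon length with genes on the other strand, and the strand setting of the counting was not given.

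In HepG2, PKF118-310 at 0.2 µM lowered most of the repair genes: 29 of the 34 tested members fell, 23 of them at least 2-fold, and 2 rose. The median log2 fold change of the members was -1.69, against 0.0062 over all genes tested, and the members spanned -2.97 to 0.25. Over all genes 33.4% were called lower and 34.3% higher, and 12.3% were lower at least 2-fold. POLQ, the polymerase of theta-mediated end joining, fell the most among the members, followed by RAD54L, a motor protein that acts on DNA during strand invasion, and EXO1, which trims DNA ends.

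In the single library given 0.3 µM, 22 of the 34 members were lower at least 2-fold than the vehicle mean, against 14.4% of all genes, with a median log2 fold change of -1.53. Without a second library there was no test at that dose.

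**Figure D1:**
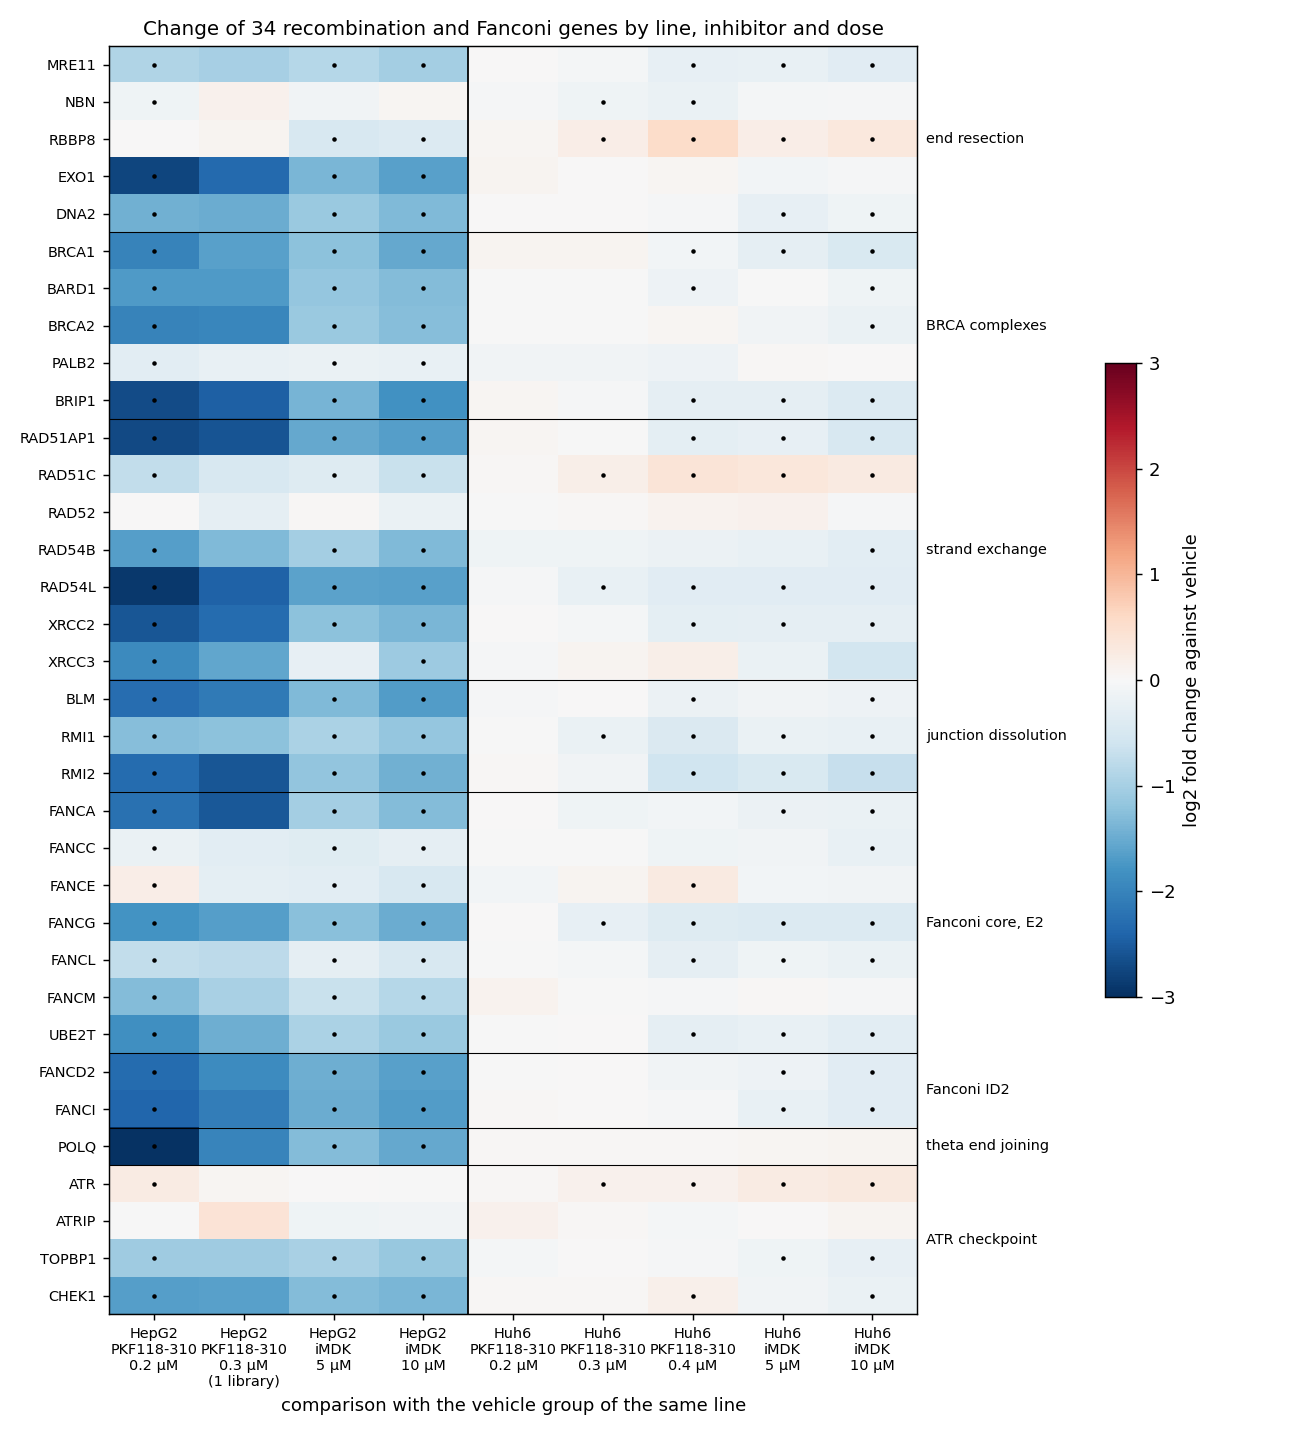
Log2 fold change against the vehicle group of the same line for the 34 tested members (rows, grouped by role) in each line, inhibitor and dose (columns); dots mark members called at an adjusted p under 0.05, and the column of the single 0.3 µM HepG2 library has no test. The HepG2 columns reach -2.97 and the Huh6 columns stay between -0.69 and 0.54.

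POLQ counted 3.52, 3.62 and 2.97 CPM in HepG2 given 0.2 µM PKF118-310, against 27, 27.5 and 24.5 CPM in vehicle HepG2. Its log2 fold change was -2.97 ± 0.11 (SE, n = 3 each; edgeR adjusted p = 5.74e-25). All 3 treated libraries lay far under the lowest vehicle library, and the library at 0.3 µM, with 6.69 CPM, lay between the groups. RAD54L counted 2.67, 2.46 and 2.68 CPM with the inhibitor, against 18.8, 21.4 and 17.6 CPM with vehicle (log2 fold change -2.89 ± 0.12, adjusted p = 5.23e-23). EXO1 counted 3.32, 3.87 and 3.8 CPM with the inhibitor, against 24.6, 24.5 and 25.2 CPM with vehicle (-2.75 ± 0.11, adjusted p = 1.77e-24). For both genes the groups were well apart, with no shared value.

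The promoters of these 3 genes are shown beside those of the 3 members that were not called in HepG2 at 0.2 µM PKF118-310: RAD52, ATRIP and RBBP8. They are printed to show the letters at the starts of genes that moved together. As background, E2F factors and the DREAM repressor complex, which bind E2F sites and CHR elements, regulate many replication and mitosis genes. Each run covers 120 bases before and 30 bases after the first start listed for the gene by RefSeq, on build GRCh38.p14, read 5′ to 3′ on the gene's own strand. Capitals mark matches to an E2F-like heptamer (the letters TTCCCGC, else TTGGCGC, else TTCGCGC, else TTGCCGC), to the CHR element (TTTGAA) or to the CCAAT box (CCAAT), each searched on both strands. The windows are chr3:121545959-121546108 (minus strand) for POLQ, chr1:46247568-46247717 (plus) for RAD54L, chr1:241848084-241848233 (plus) for EXO1, chr12:949665-949814 (minus) for RAD52, chr3:48446617-48446766 (plus) for ATRIP and chr18:22933208-22933357 (plus) for RBBP8.
POLQ: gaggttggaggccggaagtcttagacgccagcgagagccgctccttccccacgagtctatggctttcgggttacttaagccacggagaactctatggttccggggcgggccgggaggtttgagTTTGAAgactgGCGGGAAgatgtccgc
RAD54L: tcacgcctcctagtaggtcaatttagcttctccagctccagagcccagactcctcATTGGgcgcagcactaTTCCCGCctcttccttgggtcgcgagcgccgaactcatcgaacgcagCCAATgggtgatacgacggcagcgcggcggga
EXO1: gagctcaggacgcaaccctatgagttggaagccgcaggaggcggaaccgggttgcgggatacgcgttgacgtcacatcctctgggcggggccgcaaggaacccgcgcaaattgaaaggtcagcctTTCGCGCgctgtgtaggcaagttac
RAD52: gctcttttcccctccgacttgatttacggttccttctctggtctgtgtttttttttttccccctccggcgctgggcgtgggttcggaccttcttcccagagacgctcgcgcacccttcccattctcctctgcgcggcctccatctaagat
ATRIP: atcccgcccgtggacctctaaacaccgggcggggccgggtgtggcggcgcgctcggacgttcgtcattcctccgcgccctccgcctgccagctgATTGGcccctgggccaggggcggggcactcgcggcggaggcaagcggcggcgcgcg
RBBP8: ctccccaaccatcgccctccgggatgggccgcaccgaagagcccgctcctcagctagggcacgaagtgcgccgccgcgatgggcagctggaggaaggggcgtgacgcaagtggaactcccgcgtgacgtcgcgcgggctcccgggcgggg
The first 3 runs hold an E2F-like match each, and POLQ also holds a CHR match just after its start. The other 3 hold none in the stretch shown, although RAD52 has an E2F-like match at base 234 before its start, and ATRIP has a CCAAT match.

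Over the 300 bases that the table gives, 19 of the 32 member promoters found held an E2F-like match (59.4%), against 13.1% of all 27305 promoters and 19.6% of the 10854 promoters of tested genes. NBN, DNA2, RAD54B, RMI2 and FANCI had no entry. Of the 24 matches in the members, 21 lay between 100 bases before and 30 bases after the start. The CCAAT box stood in 40.6% of the member promoters, 35.7% of all promoters and 36.1% of those of tested genes. For the CHR element these shares were 12.5%, 15.4% and 10.1%. With 0.2 µM PKF118-310 in HepG2, the 17 tested members with an E2F-like match had a median log2 fold change of -2.23 and spanned -2.97 to 0.20, and the 12 tested members with an entry and no match had a median of -1.09 and spanned -2.01 to 0.25. Of the members with an entry and a log2 fold change of -2 or lower, 9 held a match and 2, BRCA1 and BRCA2, did not. FANCC and FANCE, which changed little, also hold matches, and the windows of BRCA1 and BRCA2 hold none of the 3 motifs. With 10 µM iMDK in HepG2, the 17 members with a match had a median of -1.36 and spanned -1.81 to -0.20. The 12 without a match had a median of -0.94 and spanned -1.54 to -0.02, and 0 members of either group reached -2. These values are a description, with no test. A match is a run of letters, not a bound site.

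Among the genes that trim and prepare broken ends, 4 of the 5 tested fell with 0.2 µM PKF118-310 in HepG2. MRE11, the nuclease that starts resection, counted 33.6, 34.0 and 31.2 CPM with the inhibitor, against 58.6, 64.3 and 62.3 CPM with vehicle (log2 fold change -0.91 ± 0.057, adjusted p = 2.02e-17). DNA2, a nuclease and helicase of long-range resection, fell by 1.44 on the log2 scale. NBN, which ties the MRE11 complex to the checkpoint kinase ATM, fell by 0.13, with 51.6, 53.8 and 52.4 CPM against 57.4, 54.8 and 60.5 CPM in vehicle cells, and that call was lost without vehicle library 3, without inhibitor library 1 and with library size alone as the scaling. RBBP8 (CtIP), which switches the MRE11 nuclease on, counted 54.2, 53.1 and 51.2 CPM with the inhibitor and 51.7, 49.8 and 54.9 CPM with vehicle, and these groups overlapped (0.021 ± 0.054, adjusted p = 0.745).

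All 5 members of the BRCA complexes fell, 4 of them at least 2-fold. BRCA1, a ubiquitin ligase that favours recombination over end joining, counted 17.8, 16.4 and 18.3 CPM with 0.2 µM PKF118-310, against 76.0, 69.3 and 66.1 CPM with vehicle (-2.01 ± 0.063, adjusted p = 2.81e-27). BRIP1, a helicase bound to BRCA1, counted 7.09, 6.18 and 6.83 CPM, against 42.5, 44.9 and 42.4 CPM (-2.69 ± 0.085, adjusted p = 2.45e-27). Both genes were several-fold lower in every treated library than in any vehicle library. BARD1, the partner of BRCA1, fell by 1.71, and BRCA2, which acts on single-stranded DNA ahead of strand exchange, fell by 2.0. PALB2, the bridge between BRCA1 and BRCA2, fell by only 0.32 ± 0.054, with 36.5, 40.1 and 38.9 CPM against 50.5, 47.4 and 46.2 CPM in vehicle cells.

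Of the 7 tested strand-exchange genes, 6 fell, 5 at least 2-fold. RAD51AP1, a cofactor of strand exchange, changed by -2.70 ± 0.094 and XRCC2, a subunit of a strand-exchange mediator complex, by -2.56 ± 0.11. RAD51C, another mediator of strand exchange, fell less, with 21.5, 23 and 23.8 CPM against 37.9, 38.8 and 37.1 CPM with vehicle (-0.74 ± 0.071). RAD52, which anneals single strands, counted 17, 16.9 and 20.1 CPM with the inhibitor and 16.7, 19.9 and 17.3 CPM with vehicle, with overlapping groups and no call (0.0019 ± 0.087, adjusted p = 0.986). RAD54B (-1.66 ± 0.26) and XRCC3 (-1.91 ± 0.35) were called lower at levels of at most 3.98 CPM in HepG2.

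The 3 tested genes of junction dissolution all fell at least 2-fold. RMI2, a small subunit of the BLM helicase complex, counted 17.5, 16.3 and 17.7 CPM with the inhibitor, against 83.0, 85.1 and 85.5 CPM with vehicle (-2.30 ± 0.06, adjusted p = 4.59e-30). BLM, the helicase that unwinds double Holliday junctions, changed by -2.28 ± 0.12, and RMI1, its scaffold, by -1.27 ± 0.10. RMI2 was the most abundant member per length in vehicle HepG2, at 23.3 CPM per kb of exon, above UBE2T at 18.5 and FANCL at 17.5.

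In the Fanconi core complex and its conjugating enzyme, 6 of the 7 genes fell and FANCE rose. FANCA, a core subunit, counted 14.9, 17.8 and 16.9 CPM with the inhibitor, against 71.9, 86.3 and 73.9 CPM with vehicle (-2.23 ± 0.07, adjusted p = 2.16e-27). UBE2T, the conjugating enzyme, and FANCG, another core subunit, fell by 1.83 and 1.79. FANCM, the motor that anchors the complex to DNA, fell by 1.29. FANCL, the ubiquitin ligase itself, fell by 0.75, and FANCC by 0.21, a call that was lost with library size alone as the scaling. FANCE, which holds FANCD2 to the complex, counted 24.3, 21.3 and 23.5 CPM with the inhibitor, against 19.6, 20.9 and 19.4 CPM with vehicle (0.20 ± 0.075, adjusted p = 0.015). These groups lay close to each other, and the FANCE call was lost without vehicle library 1, vehicle library 3 or inhibitor library 1 (adjusted p = 0.053, 0.0735 and 0.0759). FANCD2 counted 5.79, 7.54 and 5.17 CPM, against 29.3, 29.5 and 32.4 CPM with vehicle (-2.30 ± 0.10), and its partner FANCI fell by 2.39 ± 0.066.

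The checkpoint members divided. CHEK1, the effector kinase, counted 25.2, 23.8 and 23.6 CPM with the inhibitor, against 79.1, 73.9 and 75.4 CPM with vehicle (-1.65 ± 0.057, adjusted p = 4.73e-26), and TOPBP1, which activates ATR, fell by 1.06 ± 0.049. ATR itself rose slightly, with 36.3, 38.7 and 38.5 CPM against 33.0, 30.4 and 31.8 CPM with vehicle (0.25 ± 0.061, adjusted p = 0.000358). ATRIP, the partner of ATR, was not called (-0.014 ± 0.10, adjusted p = 0.91). The kinase pair stayed level or rose while its activator and effector fell in the same libraries.

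**Figure D2:**
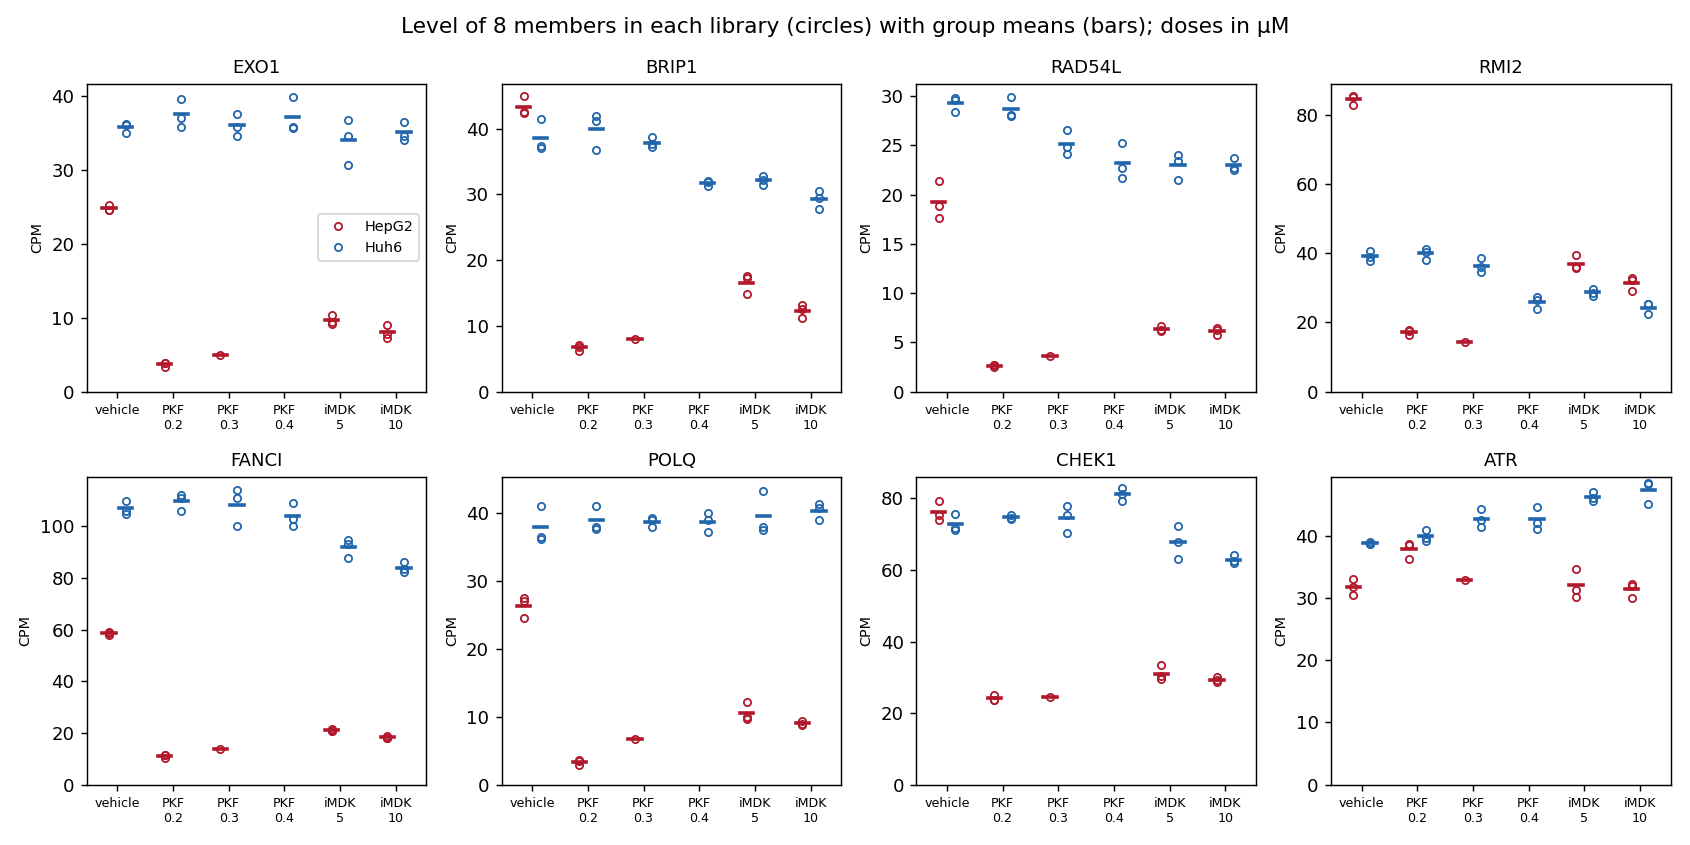
CPM of 8 members (panels) in each HepG2 (red) and Huh6 (blue) library, with group means as bars, for vehicle, PKF118-310 and iMDK at the doses in µM on the horizontal axis. The HepG2 circles of EXO1, BRIP1, RAD54L, RMI2, FANCI, POLQ and CHEK1 drop at every dose of both inhibitors, while those of ATR do not exceed 38.7 CPM or drop.

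With iMDK, members of every role fell in HepG2. At 10 µM 30 of the 34 members fell, 23 at least 2-fold, with a median of -1.28 against 0.017 over all genes. At 5 µM 29 fell, 18 at least 2-fold, with a median of -1.01 against 0.018. At 10 µM 27.2% of all genes were called lower (4.5% at least 2-fold) and 27.3% higher. At 5 µM these shares were 24.1% (2.61%) and 23.2%, and with library size alone as the scaling 40.5% of the calls at 5 µM were lower, in place of 50.9%. No member was called higher at either dose by edgeR with TMM factors or by DESeq2, and 0 had an unadjusted p under 0.05 in that direction, against 26.2% of all genes at 5 µM and 29.6% at 10 µM (edgeR). With library size alone as the scaling, 1 member was called higher at 10 µM.

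BRIP1 showed the largest change at 10 µM iMDK, with 12.5, 13.2 and 11.2 CPM in treated cells, against 42.5, 44.9 and 42.4 CPM in vehicle HepG2 (log2 fold change -1.81 ± 0.076, adjusted p = 1.48e-22). BLM counted 5.52, 7.4 and 6.38 CPM at 10 µM, against 20.6, 20.6 and 20.8 CPM with vehicle (-1.68 ± 0.11), and FANCI, FANCD2 and RAD51AP1 changed by -1.67, -1.64 and -1.66. The treated libraries of these genes lay clear of the vehicle libraries. POLQ, the lowest member with PKF118-310, counted 8.94, 9.39 and 8.82 CPM at 10 µM iMDK (-1.54 ± 0.092) and 10.0, 12.2 and 9.67 CPM at 5 µM (-1.31 ± 0.09). RAD54L changed most at 5 µM (-1.60 ± 0.10).

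RBBP8 and FANCE, which had not fallen with PKF118-310 in HepG2, did fall with iMDK. RBBP8 counted 39.3, 38.3 and 40.7 CPM at 10 µM and 35.0, 37.7 and 40.4 CPM at 5 µM, all under the vehicle libraries, with log2 fold changes of -0.40 ± 0.056 and -0.47 ± 0.056. FANCE changed by -0.47 ± 0.08 at 10 µM and by -0.32 ± 0.078 at 5 µM. NBN, RAD52, ATR and ATRIP were not called at either dose, with log2 fold changes from -0.20 to 0.057, and RAD52 came nearest at 10 µM (adjusted p = 0.0591). XRCC3 was called at 10 µM (-1.10 ± 0.32, adjusted p = 0.00338) and not at 5 µM (-0.24 ± 0.29, adjusted p = 0.526). All of these comparisons and those with PKF118-310 used the same 3 vehicle libraries.

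Set directly against 5 µM, 10 µM iMDK lowered 8 members further in HepG2 and raised 1, where 6.94% of all genes were called lower and 6.5% higher. The members were BRIP1 (-0.43 ± 0.085), BLM (-0.35 ± 0.12), BRCA1 (-0.31 ± 0.066), FANCA (-0.29 ± 0.068), RAD51C (-0.28 ± 0.072), RMI2 (-0.24 ± 0.059), FANCL (-0.21 ± 0.064) and TOPBP1 (-0.15 ± 0.052), and NBN was higher (0.17 ± 0.048). Without library 2 of the 5 µM group, 5 of these members were called lower. NBN was lost without library 1 of the 5 µM group and without library 2 or 3 of the 10 µM group.

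In Huh6 no member was called lower by 2-fold or more with either inhibitor at any dose. Of all genes, 0.00665%, 0.872% and 5.61% were so at 0.2, 0.3 and 0.4 µM PKF118-310, and 1.34% and 4.89% at 5 and 10 µM iMDK. With PKF118-310 at 0.2 µM, the dose that lowered 29 members in HepG2, no member was called in Huh6 by edgeR or DESeq2. None had an unadjusted p under 0.05 in either direction (edgeR, 0 members), against 6% of all genes lower and 6.57% higher at that p, and 1.2% of all genes were called lower and 1.04% higher. At 0.3 µM 4 members fell and 3 rose, against 13.5% and 15% of all genes, with a median of 0.0018. At 0.4 µM 14 fell and 5 rose, against 27.9% and 28.9% of all genes, with a median of -0.10 and a range of -0.60 to 0.54. With library size alone as the scaling, 58.7% of all calls at 0.3 µM were lower in place of 47.3%, and 60.6% at 0.4 µM in place of 49.1%. At 0.4 µM that scaling gave 22 members lower and 3 higher.

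RMI2 fell the most in Huh6, with 37.8, 38.9 and 40.7 CPM with vehicle, 38.1, 40.5 and 41.2 CPM at 0.2 µM PKF118-310, 36.0, 34.7 and 38.6 CPM at 0.3 µM and 27.3, 23.9 and 26.4 CPM at 0.4 µM. At 0.4 µM all 3 libraries lay under every other library of this dose series, and the log2 fold change was -0.60 ± 0.062 (edgeR adjusted p = 3.34e-11). RMI1 counted 32.2, 29.4 and 31 CPM at 0.4 µM, against 41.9, 40.3 and 43.7 CPM with vehicle (-0.44 ± 0.054), and FANCG counted 34.1, 37.5 and 35.6 CPM, against 48.4, 46.2 and 46.3 CPM (-0.39 ± 0.056). RAD54L (-0.34 ± 0.066), XRCC2 (-0.30 ± 0.065) and RAD51AP1 (-0.29 ± 0.041) followed.

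RBBP8 rose in Huh6 with the dose of PKF118-310, with 58.6, 63.4 and 60.8 CPM with vehicle, 63.7, 66.0 and 61.8 CPM at 0.2 µM, 69.9, 67.9 and 70.6 CPM at 0.3 µM and 89.1, 90.5 and 85.3 CPM at 0.4 µM. Its log2 fold change was 0.19 ± 0.042 at 0.3 µM and 0.54 ± 0.041 at 0.4 µM (adjusted p = 0.00042 and 3.69e-15). The vehicle and 0.2 µM libraries overlapped, and each higher dose lay above the one before it. RAD51C showed the same order, with 35.6, 34.3 and 34.3 CPM with vehicle, 36.8, 36.2 and 33.8 CPM at 0.2 µM, 39.7, 39.0 and 39.5 CPM at 0.3 µM and 46.4, 46.4 and 43.1 CPM at 0.4 µM. ATR was called higher at 0.3 and 0.4 µM (0.14 ± 0.05 at each dose), and FANCE (0.26 ± 0.075) and CHEK1 (0.16 ± 0.043) at 0.4 µM. POLQ, EXO1, BRCA2, FANCI and FANCD2, which fell by 2.0 or more on the log2 scale in HepG2, were not called in Huh6 at any dose of PKF118-310.

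Between the neighbouring doses of PKF118-310 in Huh6, the step to 0.3 µM, set against 0.2 µM, lowered FANCG (-0.25 ± 0.055), RMI1 (-0.19 ± 0.052) and RAD54L (-0.19 ± 0.065) and raised RBBP8 (0.12 ± 0.042) and RAD51C (0.15 ± 0.053), while 9.75% of all genes were called lower and 11.5% higher. Without library 3 of the 0.2 µM group 1 member was lower and 0 were higher. Without any other single library of either group at most 1 was higher. With library size alone as the scaling 59.9% of all calls were lower in place of 46%, and 7 members were lower and 0 higher.

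The step to 0.4 µM, set against 0.3 µM, lowered 13 members and raised 4, against 19.2% and 21.6% of all genes. RMI2 (-0.49 ± 0.063), UBE2T (-0.29 ± 0.069) and RAD51AP1 (-0.27 ± 0.041) fell the most, and RBBP8 (0.35 ± 0.04), RAD51C (0.20 ± 0.052), FANCE (0.19 ± 0.074) and CHEK1 (0.12 ± 0.043) rose. Without library 3 of the 0.4 µM group 2 members were higher, and with library size alone 59.6% of all calls were lower in place of 47%.

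With iMDK, most of the called members of Huh6 were lower. At 5 µM 16 fell and 3 rose, against 18.3% and 17.3% of all genes, with a median of -0.13 against -0.00032 over all genes. At 10 µM 22 fell and 3 rose, against 26.1% and 26% of all genes, with a median of -0.21 and a range of -0.69 to 0.32. The 3 that rose at both doses were RBBP8, RAD51C and ATR. ATR counted 38.7, 38.6 and 38.9 CPM with vehicle, 47.0, 46.1 and 45.5 CPM at 5 µM and 48.5, 48.3 and 45.1 CPM at 10 µM, and both treated groups lay above all vehicle libraries (0.25 ± 0.049 and 0.29 ± 0.049).

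BRCA1 counted 85.3, 83.3 and 86.8 CPM in vehicle Huh6, 69.2, 71.1 and 73.2 CPM at 5 µM iMDK and 62.4, 61.9 and 61.5 CPM at 10 µM, a change of -0.46 ± 0.042 at the higher dose (adjusted p = 9.58e-13). RAD51AP1 counted 84.8, 82.2 and 78.5 CPM with vehicle, 67.5, 69.2 and 71.8 CPM at 5 µM and 56.1, 61.4 and 56.9 CPM at 10 µM (-0.49 ± 0.042). In both genes the 3 groups were apart and followed the dose. RMI2 fell the most at 10 µM, with 25.3, 25.2 and 22.3 CPM (-0.69 ± 0.062, adjusted p = 8.91e-13). POLQ was not called, with 38.9, 41.3 and 40.7 CPM at 10 µM, against 36.2, 36.5 and 41.1 CPM with vehicle (0.088 ± 0.058, adjusted p = 0.211), and EXO1 was not called either (-0.028 ± 0.061, adjusted p = 0.736).

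Set directly against 5 µM, 10 µM iMDK in Huh6 lowered 7 members and raised 1, against 12.2% and 12.7% of all genes. They included RAD51AP1 (-0.26 ± 0.042), RMI2 (-0.24 ± 0.065), BRCA1 (-0.20 ± 0.042) and FANCD2 (-0.20 ± 0.048), and RBBP8 was higher (0.12 ± 0.041). Without library 1 of the 10 µM group 4 members were lower. RBBP8 was lost without library 1 of the 5 µM group and without library 1 or 2 of the 10 µM group.

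The difference between the lines was tested as an interaction at the 3 doses that both received. With 0.2 µM PKF118-310 the change was more negative in HepG2 for 27 members and more positive for 2, where 28.1% and 28.3% of all genes were called, and for 23 members the lines differed at least 2-fold (10.7% of all genes). The median difference in log2 fold change, HepG2 minus Huh6, was -1.69. POLQ differed by -3.0 ± 0.12, RAD54L by -2.86 ± 0.14, EXO1 by -2.82 ± 0.11, RAD51AP1 by -2.76 ± 0.094 and BRIP1 by -2.74 ± 0.10. FANCE (0.29 ± 0.11, adjusted p = 0.0237) and ATR (0.21 ± 0.078, adjusted p = 0.0185) were the 2 in the other direction, and 1 of these 2 calls was lost without vehicle library 1, 2 or 3 or inhibitor library 1 of HepG2, and without vehicle library 2 or 3 or inhibitor library 1 of Huh6. RBBP8, RAD52, NBN, FANCC and ATRIP did not reach the threshold.

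With iMDK the difference was more negative in HepG2 for 27 members at 5 µM and 28 at 10 µM, against 17% and 20.7% of all genes, with median differences of -0.78 and -0.92. For 10 and 16 members the lines differed at least 2-fold (1.6% and 2.67% of all genes). No member was called more positive in HepG2 at either dose by edgeR with TMM factors or by DESeq2, where 15.6% and 21% of all genes were called, and 0 had an unadjusted p under 0.05 in that direction, against 20.1% and 24.4% of all genes (edgeR). With library size alone as the scaling, 1 member was more positive at 10 µM. POLQ led at both doses, with -1.34 ± 0.11 and -1.59 ± 0.10. At 5 µM it was followed by FANCD2 (-1.29 ± 0.10), RAD51AP1 (-1.27 ± 0.085), EXO1 (-1.26 ± 0.10) and FANCI (-1.23 ± 0.064), and at 10 µM by EXO1 (-1.55 ± 0.10), BLM (-1.49 ± 0.11), BRIP1 (-1.37 ± 0.10) and FANCI (-1.28 ± 0.068). RBBP8 and RAD51C, which fell in HepG2 and rose in Huh6 at 10 µM, differed by -0.68 ± 0.07 and -0.88 ± 0.093.

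**Figure D3:**
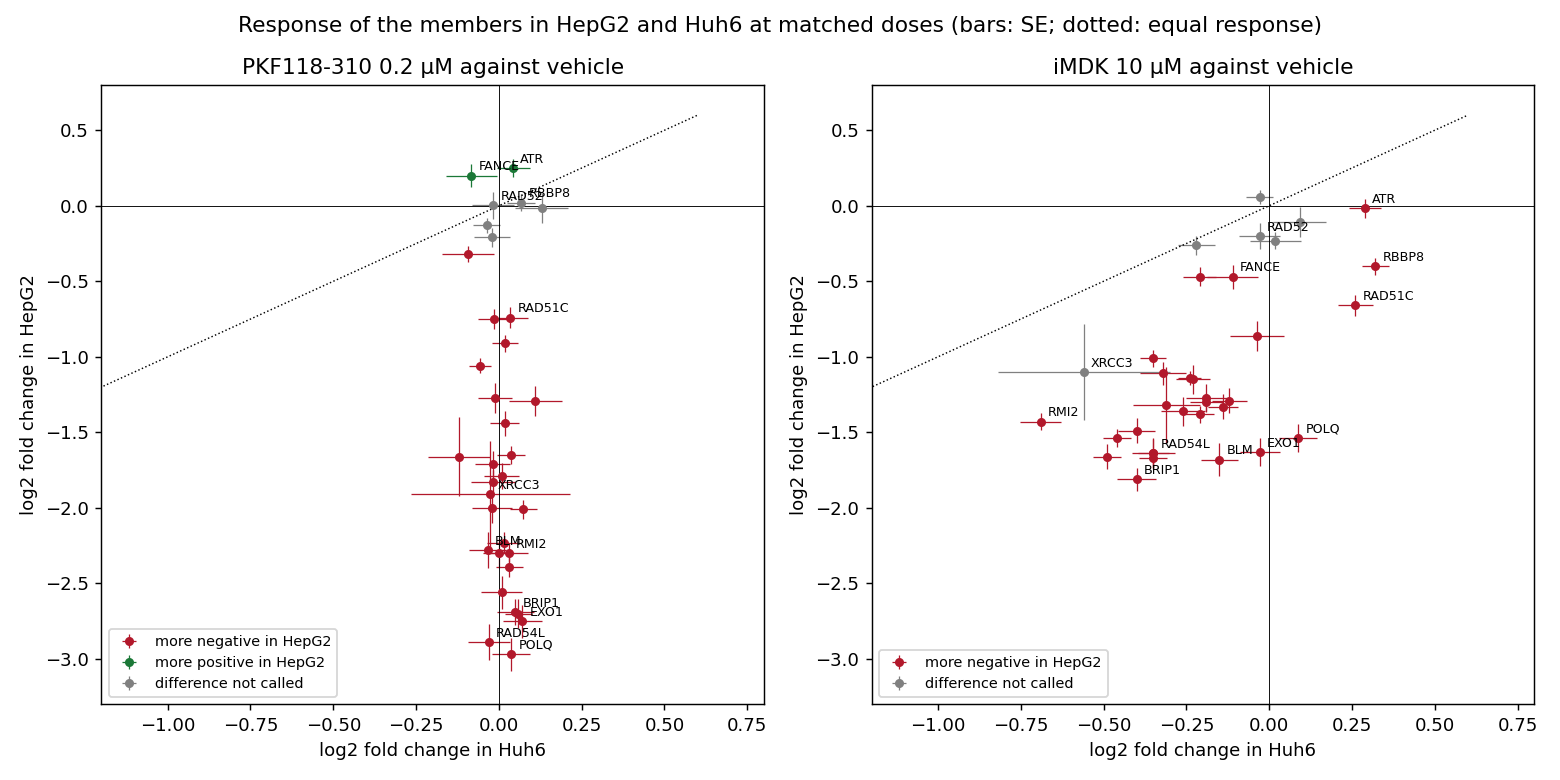
Log2 fold change against vehicle of the 34 tested members in HepG2 (vertical axis) and Huh6 (horizontal axis) at 0.2 µM PKF118-310 (left) and 10 µM iMDK (right); bars are standard errors, the dotted line marks an equal response and colour marks the result of the interaction test. At 0.2 µM PKF118-310 the points form a vertical column, since the Huh6 values lie between -0.12 and 0.13 while the HepG2 values reach -2.97.

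Before any inhibitor, 25 of the 34 members were lower in vehicle HepG2 than in vehicle Huh6 and 4 were higher, against 42.6% and 40.4% of all genes, with a median of -0.49. RAD54B (-2.30 ± 0.14), RAD51AP1 (-1.33 ± 0.052), BRCA2 (-1.08 ± 0.06) and DNA2 (-1.02 ± 0.056) were at least 2-fold lower in HepG2, as were 22% of all genes. PALB2 counted 50.5, 47.4 and 46.2 CPM in HepG2, against 18, 18.9 and 16.9 CPM in Huh6 (1.38 ± 0.065), and RMI2 counted 83.0, 85.1 and 85.5 CPM, against 37.8, 38.9 and 40.7 CPM (1.07 ± 0.047). FANCA was also higher in HepG2 (0.46 ± 0.058), and BRIP1 was called by a small margin (0.13 ± 0.058, adjusted p = 0.0449) that was lost with RLE factors, library size alone, a 1 CPM filter, the replicate block or DESeq2 (adjusted p = 0.0519 to 0.163). It was also lost without vehicle library 2 of HepG2 and without vehicle library 2 or 3 of Huh6.

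The same comparisons were read for other repair and proliferation genes. In HepG2 with 0.2 µM PKF118-310, all 14 DNA replication genes fell, 13 at least 2-fold, and all 10 genes of G2 and mitosis fell at least 2-fold, with medians of -2.05 and -2.85 beside -1.69 for the members. Of all genes 33.4% were called lower there, and 12.3% were lower at least 2-fold. MCM2, a subunit of the replicative helicase, changed by -2.33, RRM2, which makes deoxynucleotides, by -2.79, and MKI67, the proliferation antigen, by -3.46. CDKN1A, which encodes the cyclin-dependent kinase inhibitor p21, counted 1032, 1047 and 1016 CPM with the inhibitor, against 181, 182 and 187 CPM with vehicle (log2 fold change 2.49). The 16 hepatoblastoma markers also fell in that group, all 16 of them, to a sum of 8569 to 9497 CPM, against 35729 to 39372 CPM with vehicle. The part of these shifts in the change of the members was not tested.

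Recombination and Fanconi genes that are not among the members divided more evenly. The members and lists were chosen with earlier results of these data known, so this contrast may follow from that choice. With 0.2 µM PKF118-310 in HepG2, 27 of the 52 tested fell, 13 rose and the median was -0.22. Over all genes 33.4% were called lower and 34.3% higher. FANCB, a core complex subunit (-2.65), CLSPN, which carries the signal of ATR to CHEK1 (-2.60), and MMS22L, which acts in recombination at stalled forks (-1.93), were among those that fell. ERCC1 (1.61) and its partner ERCC4 (0.56), the nuclease that unhooks crosslinks, HUS1 of the 9-1-1 checkpoint clamp (1.54) and the junction nuclease MUS81 (1.02) rose.

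Of 9 tested genes of classical end joining, the route that joins broken ends without a template, 5 fell and 2 rose, none of them 2-fold, with a median of -0.078. The shares of all genes in that comparison were 33.4% lower and 34.3% higher. LIG4, the ligase (0.54), and POLM, a gap-filling polymerase (0.27), rose, and PRKDC, the DNA-dependent kinase, and NHEJ1, a ligase cofactor, both fell by 0.37.

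With 10 µM iMDK in HepG2, all 14 replication genes fell (12 at least 2-fold, median -1.48), as did all 10 mitotic genes (10 at least 2-fold, median -1.44), and CDKN1A changed by 1.25. Of the 52 other recombination and Fanconi genes 29 fell and 8 rose (median -0.29), where 27.2% of all genes were called lower and 27.3% higher. Among the classical end-joining genes, LIG4 rose (0.74) and PRKDC fell by 1.01, so that list held changes in both directions.

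In Huh6 the medians of the 4 other lists lay between -0.30 and 0.15. With 0.4 µM PKF118-310, 4 replication genes fell and 4 rose (median -0.0048), while 9 of the 10 mitotic genes fell (median -0.30), led by TOP2A, the topoisomerase of chromosome segregation (-0.83). CDKN1A changed by 0.92 there. Of the 52 other recombination and Fanconi genes 11 fell and 16 rose, HUS1 (0.68) and MUS81 (0.55) among those that rose, and of the 9 end-joining genes 0 fell and 5 rose. Of all genes 27.9% were called lower and 28.9% higher at that dose. With 10 µM iMDK, 11 replication genes fell and 1 rose (median -0.19), all 10 mitotic genes fell (median -0.28) and CDKN1A changed by 0.84. There 26.1% of all genes were called lower and 26% higher.

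**Figure D4:**
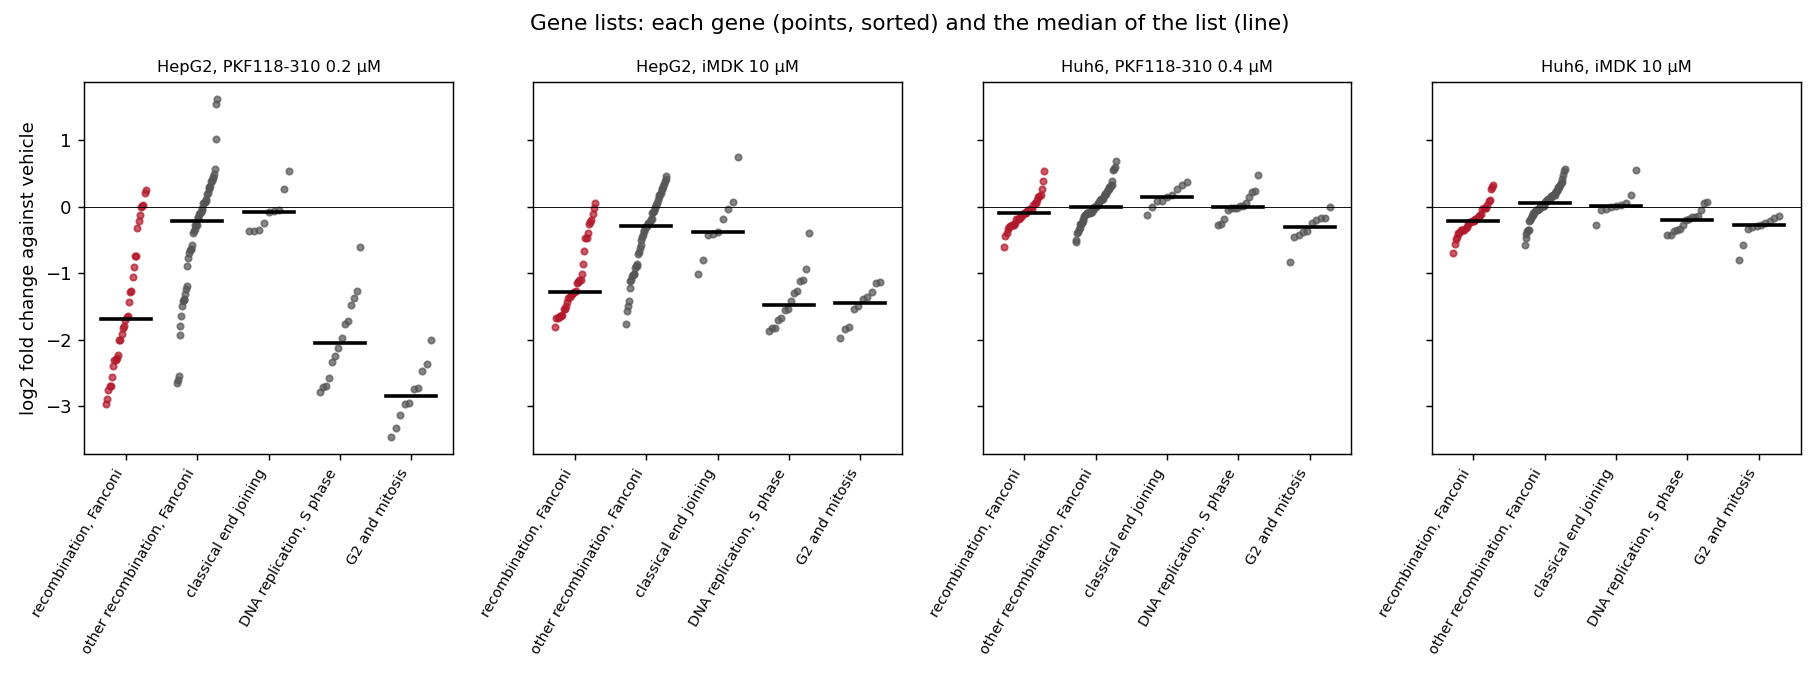
Log2 fold change against vehicle of each tested gene (points, sorted within a list) and the median of the list (line) for the members (red) and 4 other lists (grey), in HepG2 with 0.2 µM PKF118-310 and 10 µM iMDK and in Huh6 with 0.4 µM PKF118-310 and 10 µM iMDK. In HepG2 the replication and mitosis lists lie as low as the members or lower, at medians of -2.05 and -2.85 with PKF118-310, where the median of the classical end-joining list lies near 0.

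In THP-1 macrophages kept alone, FANCE was the most abundant member per length, at 76.5 CPM per kb of exon, ahead of RAD52 at 11 and TOPBP1 at 9.24. FANCE counted 211, 201 and 206 CPM in THP-1 alone, many times its level of 19.4 to 20.9 CPM in vehicle HepG2 and 17.2 to 19.5 CPM in vehicle Huh6, although these tables were counted and scaled separately. EXO1, BRIP1, RAD51AP1, XRCC2 and RAD54L stayed under 14 CPM in THP-1 alone.

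THP-1 sorted from HepG2 had 2 members lower and 1 higher than THP-1 alone, against 9.68% and 12% of all genes. NBN counted 27.3, 26.5 and 31.8 CPM with HepG2, against 37.0, 39.1 and 38.7 CPM alone (-0.42 ± 0.10, adjusted p = 0.00248), and ATR counted 52.8, 53.3 and 47.2 CPM, against 60.8, 59.8 and 62.4 CPM alone (-0.26 ± 0.077, adjusted p = 0.0193). RMI2 counted 15, 21.3 and 18.1 CPM with HepG2, against 9.61, 10.5 and 11.4 CPM alone (0.78 ± 0.17, adjusted p = 0.00201). In all 3 genes the groups did not overlap. Without library 3 of either group only 1 member was called lower.

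Tumour messages were present in these sorted cells. The 16 hepatoblastoma markers summed to 2820 to 3410 CPM in THP-1 with HepG2, all above 1 CPM, against 56.2 to 71.1 CPM alone, where AFP, APOB, TTR, FGB, FGG, PEG10 and DLK1 were at 0. From these markers the share of tumour reads was estimated at 8.65%, 9.84% and 9.28% in the 3 libraries with untreated HepG2, with single markers giving 0.936% (AFP) to 17.1% (FGB), so the estimate is rough. RMI2 is high in HepG2 itself. With the estimated tumour reads subtracted, 16 members were lower with HepG2 than alone, 5 of them at least 2-fold, and FANCE was higher (0.34) while RMI2 was not called. The subtraction lowers every gene expressed in HepG2, and the share of all genes called after it was not taken, so these counts cannot be set against a background.

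THP-1 with Huh6 had no member called against THP-1 alone by edgeR, and DESeq2 called 1 higher. Over all genes 1.32% were called higher and 0.503% lower. At an unadjusted p under 0.05 (edgeR), 8 members were higher and 1 lower, against 7.12% and 3.95% of all genes, and the median log2 fold change was 0.26. Libraries with the same replicate number deviated together in this comparison (r = 0.50, 0.35 and 0.21), and with the number as a block 4 members were called higher: BRCA1 (0.36), RAD51AP1 (0.78), FANCI (0.46) and POLQ (0.69), with adjusted p = 0.0233, 0.0347, 0.0337 and 0.00281. The shares of all genes above are from the unblocked fit, and none was taken for the blocked fit. POLQ counted 21.7, 22.2 and 19.3 CPM with Huh6, against 8.92, 17 and 13.8 CPM alone, with no overlap but a wide spread alone. The estimated tumour share here was 1.47%, 0.682% and 0.345%.

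Proliferation genes moved with the members in that comparison. MKI67 counted 127, 125 and 106 CPM with Huh6, against 48.7, 80.4 and 79.2 CPM alone, and was called higher (0.78 ± 0.18, edgeR adjusted p = 0.024). CDC20, an activator of the anaphase-promoting complex (0.66 ± 0.17), and RRM2 (0.72 ± 0.16) were the other called genes among the 10 mitotic and 14 replication genes, whose medians were 0.66 and 0.35. Library 1 of THP-1 alone stood apart: it was the lowest of the 3 for 27 of the 34 tested members, with 5.37 CPM of EXO1 against 13.1 and 9.84 CPM in the other libraries. The unblocked fit called no member with or without it, so leaving it out had no call to lose, and the blocked fit was not run without it. The part of the proliferation genes or of library 1 in the member values was not tested.

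Between the partners, 14 members were lower in THP-1 with HepG2 than with Huh6 and 1 was higher, against 7.55% and 9.13% of all genes, with a median of -0.37. XRCC2 (-0.88 ± 0.22), BRCA2 (-0.73 ± 0.19), POLQ (-0.68 ± 0.19), RAD54L (-0.66 ± 0.22), UBE2T (-0.63 ± 0.20) and BRCA1 (-0.60 ± 0.13) were the lowest. XRCC2 counted 3.49, 3.81 and 3.33 CPM with HepG2, against 6.24, 6.78 and 6.61 CPM with Huh6, and BRCA1 counted 21.2, 25.8 and 25 CPM, against 34.9, 37.4 and 37.0 CPM. The groups of both genes were apart. FANCE was higher with HepG2, at 215, 216 and 258 CPM against 171, 194 and 185 CPM (0.32 ± 0.074, adjusted p = 0.00414).

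The count of members lower between the partners rested on few libraries: it was 7 and 6 without library 1 or 2 of the HepG2 group and 9, 4 and 9 without library 1, 2 or 3 of the Huh6 group. With the replicate number as a block, which pairs these libraries (r = 0.48, 0.11 and 0.24), 18 members were lower and 2 higher, the added ones being EXO1, DNA2, RAD51C and CHEK1 below and RMI2 (0.49) above. With the estimated tumour reads subtracted, 23 members were lower, 9 at least 2-fold, but the step takes a larger share from the HepG2 group and so lowers genes expressed in HepG2. The share of all genes called was taken neither for the blocked fit nor after subtraction. In the unblocked fit, 10 of the 14 replication genes were lower with HepG2 than with Huh6, and 5 of the 10 mitotic genes were, with medians of -0.49 and -0.48. Of all genes 7.55% were called lower in that fit. Their part in the change of the members was not tested.

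With tumour cells given iMDK before co-culture, no member of THP-1 was called by edgeR or DESeq2 against co-culture with the untreated line. Of all genes, 0.071% were called lower and 0.0194% higher with HepG2 given 5 µM, and 2.7% and 0.645% with HepG2 given 10 µM. At an unadjusted p under 0.05 (edgeR), 2 members were lower and 0 higher at 5 µM, against 5.99% and 3.71% of all genes. At 10 µM 2 were lower and 6 higher, against 8.93% and 7.35% of all genes. The replicate number as a block (r = 0.17, 0.53 and 0.54) then called 4 members higher at 10 µM: NBN (0.34), BRCA1 (0.36), POLQ (0.48) and TOPBP1 (0.25), with adjusted p = 0.00607, 0.0226, 0.0309 and 0.0359. For this blocked fit the share of all genes called was not taken.

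NBN counted 38.0, 33.0 and 37.0 CPM in THP-1 with HepG2 given 10 µM iMDK, against 27.3, 26.5 and 31.8 CPM with untreated HepG2, and all 3 treated libraries lay above. The hepatoblastoma markers summed to 597 to 1229 CPM with 10 µM and 1652 to 2185 CPM with 5 µM, against 2820 to 3410 CPM untreated, so the tumour reads differed between these groups too. With the estimated tumour reads subtracted, 12 members were higher and 1 lower at 10 µM, and 7 higher and 1 lower at 5 µM. The share taken off was 1.53% to 3.58% at 10 µM and 4.15% to 6.22% at 5 µM, against 8.65% to 9.84% untreated. This step by itself pushes genes expressed in HepG2 higher in the treated groups. Single markers gave 0.48% to 8.3% at 10 µM, and the iMDK profiles used came from cells treated for 48 h, not 24 h. The share of all genes called after subtraction was not taken. With Huh6 given 5 µM no member passed an unadjusted p of 0.05 (edgeR, 0 in each direction), against 2.59% of all genes lower and 1.16% higher. With Huh6 given 10 µM 1 was lower and 0 higher, against 3.19% and 1.57% of all genes. By adjusted p, 0.00645% and 0.0516% of all genes were called lower and 0.00645% higher at each dose. The part of the tumour reads in the THP-1 values was not tested beyond the subtraction.

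**Figure D5:**
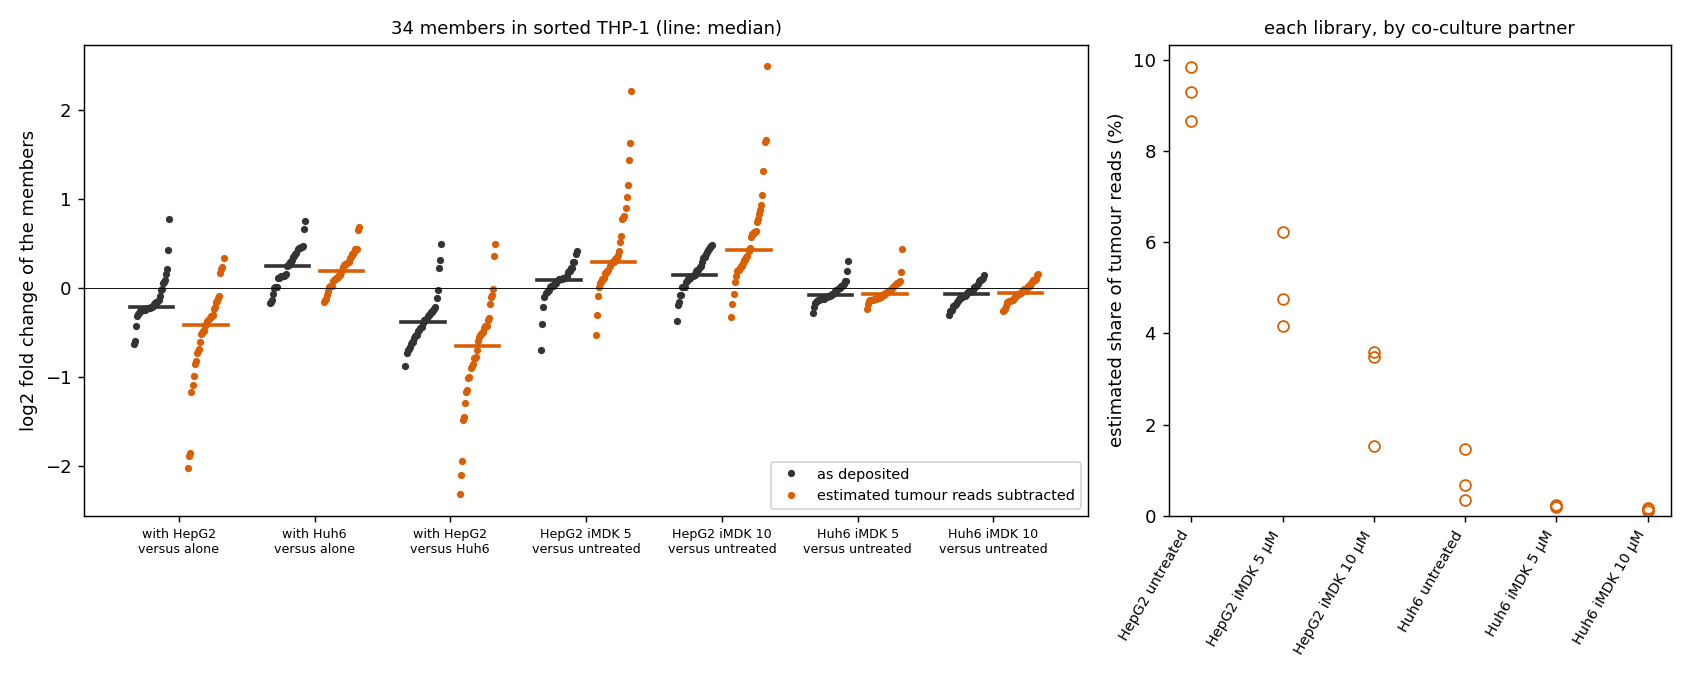
Left, log2 fold change of the tested members in sorted THP-1 for 7 comparisons, from the counts as deposited (dark) and after subtraction of estimated tumour reads (orange), each gene a point with the median as a line. Right, the estimated share of tumour reads in each co-culture library, which reaches 9.84% with untreated HepG2 and stays at or under 1.47% with Huh6.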

How the data were processed

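Human cell lines only were analysed: 31 libraries of HepG2 and Huh6 and 21 of THP-1, made per the labels' protocols from poly(A) RNA with a strand-specific kit. The deposited values are raw counts per gene that the authors made with STAR 2.7.3a, SAMtools 1.16.1 and featureCounts on GRCh38, per the submitters' processing notes, which also name edgeR 3.36. Strand setting and annotation release: not given in the sources used here. Strand and annotation decide which genes share or lose reads.

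From the counts, each line was fitted alone with edgeR 4.0.16 (R 4.3.3, limma 3.58.1): filterByExpr by group (minimum count 10), TMM factors, 1 mean per group, quasi-likelihood F test, Benjamini-Hochberg over all genes tested (15029 in Huh6, 15451 in HepG2, 15500 in THP-1) at 0.05. The response difference between lines was an interaction over the 4 groups. Standard errors are the log2 fold change divided by the square root of F. The HepG2 group at 0.3 µM has 1 library, so its fold changes have no test. Scripts were tested on simulated data with 100 changes of 0.5 on the log2 scale. Of these, 84 were recovered for HepG2 at 0.2 µM PKF118-310 and 83 for Huh6 at 10 µM iMDK. For THP-1 with HepG2 against alone 35 were recovered, so a THP-1 comparison without a call can miss changes of that size. No 2 libraries of a group were duplicates: the chi-square per gene was 1.79 to 19.9 over 51 pairs.

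All 37 members could be named. Of other lists, up to 4 genes in each direction with the largest called change were named, plus MKI67, TOP2A, MCM2, CDKN1A and the markers, and up to 5 members in each direction for a difference between lines. A gene that this rule also names is not reported here. The members and lists were chosen with earlier results of these data known. Same-numbered THP-1 libraries deviated together, with every pair over 0.1, in 5 of 7 comparisons, where the replicate block is given where it changed a call. Tumour libraries did not pair. Alternatives were RLE or library-size scaling, no filter, a 1 CPM filter in 3 libraries, DESeq2 1.42.0, the groups compared alone, each library left out, the replicate block, HepG2 without its single 0.3 µM library, and subtraction of estimated tumour reads. The 300-base promoter windows came from RefSeq (GRCh38.p14), and in 27 of 32 the last 30 bases of the window were found in a transcript of the gene. The bases nearest the start were not checked.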

Additional observations from a re-analysis of the deposited data

Results flagged for a closer look

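The response of the members to the same inhibitor and dose differed between HepG2 and Huh6 by an interaction test in edgeR, with the values given as HepG2 minus Huh6 on the log2 scale. With 0.2 µM PKF118-310 the change was more negative in HepG2 for 27 members, led by POLQ (-3.0), RAD54L (-2.86) and EXO1 (-2.82), and more positive for 2, FANCE (0.29) and ATR (0.21). Of all genes 28.1% were called more negative and 28.3% more positive in HepG2. In 7 of 12 fits with 1 library left out, 1 of the 2 more positive calls was lost. With 5 µM iMDK the change was more negative in HepG2 for 27 members (17% of all genes), led by POLQ (-1.34), FANCD2 (-1.29) and RAD51AP1 (-1.27). With 10 µM iMDK it was more negative in HepG2 for 28 members (20.7% of all genes), led by POLQ (-1.59), EXO1 (-1.55) and BLM (-1.49).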

How the results depend on the processing

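The counts of members lower in HepG2, and of members with a more negative change in HepG2 than in Huh6, stayed within 1.5 times the reported ones in the comparisons with vehicle and between lines under all alternatives run. In HepG2 and Huh6, 3717 of 3808 single-member values kept direction and side of the threshold under other settings, 61 lost their call, 30 gained one and 0 reversed. With 1 library left out 3701 of 3876 did, 141 lost and 34 gained. In THP-1 the figures were 1815 of 1904, 15 and 74, and 1376 of 1428, 43 and 9. Some counts of members moved by more than 1.5 times or to or from 0, mainly for dose steps and in THP-1, and the cause was not tested. Library size alone gave 22 lower and 3 higher for Huh6 at 0.4 µM PKF118-310, 7 lower and 0 higher for 0.3 against 0.2 µM, 2 higher for 0.4 against 0.3 µM, 1 higher for HepG2 at 10 µM iMDK and for its difference between lines, and in THP-1 1 lower for HepG2 against alone and 2 higher for HepG2 against Huh6. Without a low-count filter the members higher were 0 for Huh6 0.3 against 0.2 µM and for Huh6 iMDK 10 against 5 µM, 2 for THP-1 with Huh6 against alone and 2 for HepG2 against Huh6, and 1 member was lower for HepG2 against alone. DESeq2 gave 1 higher for 0.3 against 0.2 µM, 1 for THP-1 with Huh6 against alone and 2 for HepG2 against Huh6. Fitting only the groups compared gave 1 higher for 0.3 against 0.2 µM and 1 lower for THP-1 with HepG2 against alone. RLE factors and the 1 CPM filter each gave 2 higher for HepG2 against Huh6. The replicate block gave 5 lower for THP-1 with HepG2 against alone, where the numbers did not meet the pairing rule, 4 higher for Huh6 against alone, 2 higher for HepG2 against Huh6 and 4 higher for HepG2 given 10 µM iMDK, and moved no tumour count of members by over 1.5 times, where r ran from -0.093 to 0.14. Subtraction of tumour reads gave 16 lower, 5 at least 2-fold, for HepG2 against alone, 23 lower, 9 at least 2-fold, for HepG2 against Huh6, 1 lower and 7 higher for HepG2 given 5 µM iMDK, and 1 lower and 12 higher at 10 µM. The step by itself moves genes expressed in HepG2 in the direction of most of these counts.

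With each library left out, the ranges of members called were 1 to 2 higher for HepG2 at 0.2 µM PKF118-310 and for its difference between lines; 1 to 3 lower and 0 to 1 higher for Huh6 0.3 against 0.2 µM; 2 to 4 higher for 0.4 against 0.3 µM; 4 to 8 lower and 0 to 1 higher for Huh6 iMDK 10 against 5 µM; 5 to 8 lower and 0 to 1 higher for HepG2 iMDK 10 against 5 µM. In THP-1 they were 1 to 3 lower for HepG2 against alone, 0 to 1 higher for Huh6 against alone, 4 to 11 lower, 0 to 1 lower at least 2-fold and 1 to 2 higher for HepG2 against Huh6, and 0 to 1 higher for HepG2 given 10 µM iMDK. The share of member promoters with an E2F-like match was 34.4% in the 250 bases before the start alone (11% of all promoters), and 65.6% over any listed start (15.3%), an alternative chosen after seeing the data. Depth limits RAD54B and XRCC3, at a few CPM, and THP-1, where most members count under 20 CPM.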
